A study of Homo sapiens with 6 samples.

Results

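Histone messages read by poly-A sequencing were followed in SKM-1 cells, an established human acute myeloid leukaemia line. The members were the protein-coding genes whose symbol begins with HIST1H to HIST4H, or with H1F, H2AF or H3F, in the GENCODE 29 annotation. The rule was met by 72 of the 26704 genes listed in the deposited tables, 59 genes of the replication-dependent clusters (the HIST symbols) and 13 variant genes. GENCODE 29 holds 87 genes that meet it, and the other 15 are not listed in a table here. Of the 72 genes, 61 had a value in all 6 libraries, 50 cluster and 11 variant genes. A mean normalised read count of at least 10 was reached by 20 cluster and 10 variant genes.

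The 6 libraries were 1 of cells treated with VEM, 1 of cells treated with VEM and BOR together (VEM+BOR), 2 of cells treated with BOR (BOR 1 and BOR 2) and 2 of untreated cells (untreated 1 and untreated 2). The series title names vemurafenib, a RAF kinase inhibitor, and the labels give the second agent only as BOR. The sources used here give neither dose nor duration of treatment. Nothing in the labels says that libraries of 1 group came from separate cultures, so p-values reflect only how far apart these 6 libraries of 1 cell line lie, which can be technical.

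Replication-dependent histone genes lie in clusters, have no introns and supply the histones that package new DNA in S phase. Their messages normally end in a stem-loop that is bound by the protein SLBP, and not in a poly-A tail. Variant histone genes lie alone in the genome, mostly have introns, end in a poly-A tail and are made throughout the cell cycle. Poly-T beads hold messages by their tail, so a cluster gene enters such a library mainly through tailed transcripts, which some cluster genes make by reading on past the stem-loop, or through incomplete selection.

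The stem-loop is the sequence that sets the cluster genes apart, and it was looked for in the annotated coding transcripts. It was present in 32 of 59 cluster genes, and among the 13 variant genes H2AFX alone held it. The absence from the other cluster genes has to be read against the annotation, in which 24 cluster genes end at the stop codon with no 3′ untranslated base. The sites below, from GENCODE 29 transcripts on GRCh38, belong to genes whose values are described further on, with the 16 bases of the hairpin in capitals and 5 flanking bases on each side in lower case.
HIST1H2AC: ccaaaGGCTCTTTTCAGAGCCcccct
HIST3H2A: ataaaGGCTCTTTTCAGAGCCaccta
HIST1H3G: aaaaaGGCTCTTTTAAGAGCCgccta
HIST1H2BD: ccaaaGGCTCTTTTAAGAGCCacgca
HIST1H4I: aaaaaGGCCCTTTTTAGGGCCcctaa
H2AFX: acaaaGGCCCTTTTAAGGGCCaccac
The hairpin of HIST1H2AC and HIST3H2A was the most frequent one and was shared by 17 genes. That of HIST1H3G and HIST1H2BD was shared by 5 genes, that of HIST1H4I by 3 genes, and that of H2AFX was found in that gene alone.

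The same annotation divides the cluster genes by how far their transcripts run. In 34 genes it gives at most 150 bases after the stop codon (a short 3′ model), and in 25 genes more (a long 3′ model). A hairpin lies in 24 of the 25 long models, HIST1H2BJ being without one. In HIST1H2AC the annotated transcript goes on for 1114 bases past the hairpin, in HIST3H2A for 390 and in HIST1H3G for 1518. This division was chosen after values had been seen, and results that use it are descriptions. Reads that fall past the annotated end of a short model are not counted to the gene.

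Levels per kilobase of gene length were higher in most variant genes than in the cluster genes, and the classes overlapped. H2AFZ, which encodes the H2A.Z variant, averaged 6996 normalised reads per kilobase over the 6 libraries, and H1F0, the linker histone H1.0 of slowly dividing and differentiated cells, averaged 2748. H3F3A and H3F3B, which both encode H3.3, averaged 2464 and 1204. The variants H2AFY2, at 670, H2AFJ, at 278, and H2AFY, at 264, lay within the range of the highest cluster genes, and H3F3C averaged 1.74. The highest cluster gene, HIST1H2BK, averaged 772 normalised reads per kilobase, followed by HIST1H1C with 437, HIST3H2A with 254, HIST2H2AC with 142 and HIST1H2AC with 125. The 12 highest cluster genes continued with HIST1H4I at 77.8, HIST1H2BD at 52.6 and HIST1H2BJ at 33.9, and ended with HIST1H3C, HIST1H2AJ, HIST2H3D and HIST1H4C between 27.2 and 29.8. All 5 histone types were therefore among these genes, with H2A and H2B in 7 of the 12 places. HIST1H4C, HIST1H3C and HIST2H3D owed much of their mean to BOR 2, where each was highest, as given further on. The H3 type stood among the 12 only through HIST1H3C and HIST2H3D.

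The cluster genes together took a small share of each library. Counted as reads scaled to the library total (CPM), they held 92.2 CPM in VEM (95% exact binomial interval 87.7 to 96.9), 59.3 in VEM+BOR (55.9 to 63.0), 91.4 in BOR 1 (87.0 to 96.0) and 79.0 in BOR 2 (75.0 to 83.1), against 141 in untreated 1 (136 to 147) and 87.7 in untreated 2 (83.4 to 92.1). VEM+BOR was the lowest and untreated 1 the highest, and the untreated libraries stood further apart than VEM, BOR 1 and BOR 2 did from untreated 2. The variant genes took 3070 CPM in VEM, 3012 in VEM+BOR, 3006 in BOR 1 and 2900 in BOR 2, against 2849 in untreated 1 and 3291 in untreated 2, so each treated library lay between the untreated ones. Intervals cover counting error only.

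Set against the variant genes of the same library, the cluster genes came to 3.0% in VEM, 1.97% in VEM+BOR, 3.04% in BOR 1 and 2.72% in BOR 2, against 4.95% in untreated 1 and 2.66% in untreated 2. On the log2 scale the ratio was -5.06 in VEM, -5.67 in VEM+BOR, -5.04 in BOR 1 and -5.20 in BOR 2, against -4.34 in untreated 1 and -5.23 in untreated 2. This ratio does not depend on the scaling of a library. With all genes counted, VEM+BOR alone lay outside the untreated pair, below both, by less than the pair's own distance. Which libraries lay outside changed with the genes counted. With short models only, VEM at -6.32 and BOR 1 at -6.24 were also below both untreated libraries, against -5.60 in untreated 1 and -6.18 in untreated 2. With long models only, BOR 2 at -6.30 was marginally below both, against -5.11 in untreated 1 and -6.28 in untreated 2. With the overlapping genes and near-identical copies left out, BOR 2 was above both, at -2.54 against -2.74 in untreated 1 and -3.42 in untreated 2. That move lay in the variant genes, which fell from 11 to 5. Their BOR 2 sum over the untreated mean went from log2 0.51 to -0.45, while that of the cluster genes was 0.09 and 0.08. With 1 library of VEM and of VEM+BOR, and 2 of BOR, no exact test over libraries could reach 0.05, and none was made.

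**Figure D1:**
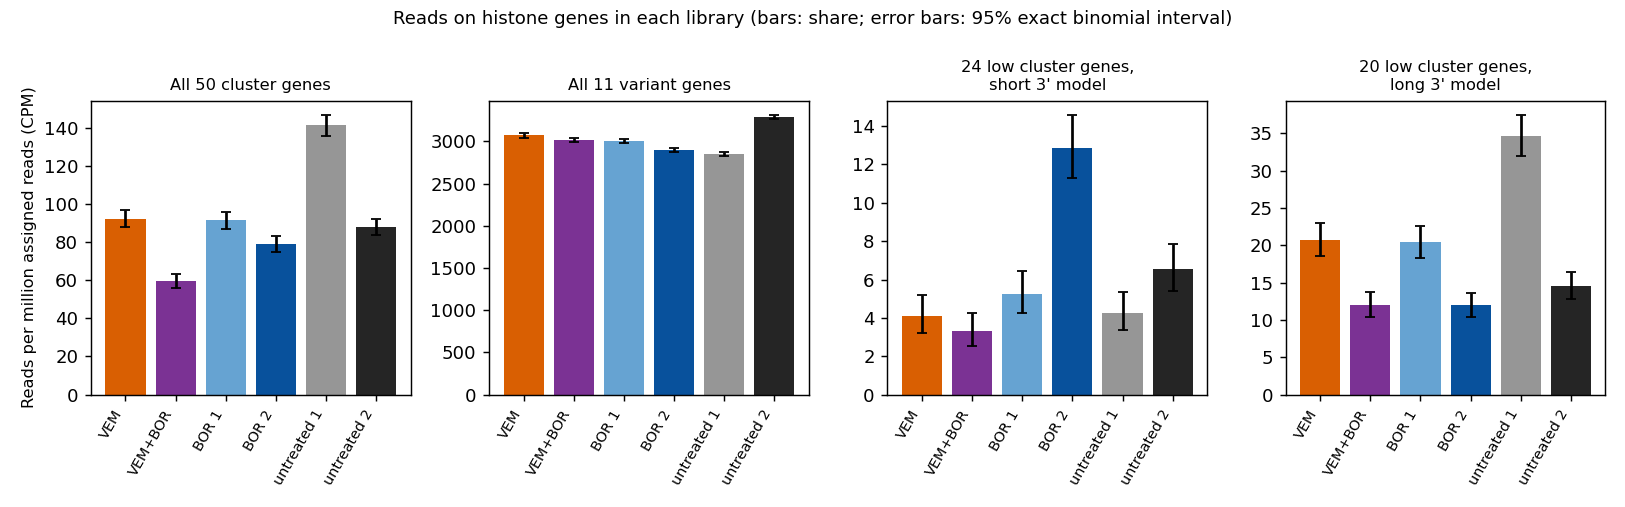
CPM (bars) with 95% exact binomial intervals (error bars) in each library, for all cluster genes, all variant genes, and the cluster genes with a mean under 50 split by 3′ model. VEM+BOR has the lowest cluster bar at 59.3, untreated 1 the highest at 141, and BOR 2 the highest bar of the low genes with a short model at 12.9.

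BOR 2 stood apart from the other 5 libraries across all genes. Its median log2 difference from the untreated mean was -1.29 over the 25% of genes with the lowest GC content and 0.45 over the 25% with the highest, where BOR 1 had 0.18 and -0.07, VEM 0.01 and -0.04, and VEM+BOR 0.12 and -0.08. Cluster genes with a short 3′ model had a median GC content of 60.8%, those with a long model 47.2% and variant genes 49.1%, against 48.9% over all genes tested. The part of GC content in the BOR 2 values was not tested, and they are given beside those of BOR 1 throughout. Library scaling matters for BOR 2 as well: normalised read counts (scaled by the median ratio over genes) run higher there than CPM, and both are given where the order of libraries turns on it. Of the 7 myeloid markers checked all were present, with MPO at 6553 in VEM, 4788 in VEM+BOR, 17243 in BOR 1 and 41958 in BOR 2, against 18699.8 in untreated 1 and 15449 in untreated 2. Of markers of other cell types, EPCAM (epithelial cells) had 3.67 to 12.9 normalised reads in the treated libraries, against 12.4 in untreated 1 and 5.89 in untreated 2. COL1A1 (fibroblasts) had 49.8 in VEM, 32.1 in VEM+BOR, 58.3 in BOR 1 and 39.2 in BOR 2, against 136 in untreated 1 and 27.5 in untreated 2. PECAM1 (endothelial cells) had 4.61 in VEM, 27.5 in VEM+BOR, 10.2 in BOR 1 and 48.7 in BOR 2, against 28.4 in untreated 1 and 6.87 in untreated 2. The part of other cell types in the histone values was not tested. CD3E, MS4A1 and KRT18 were not listed.

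**Figure D2:**
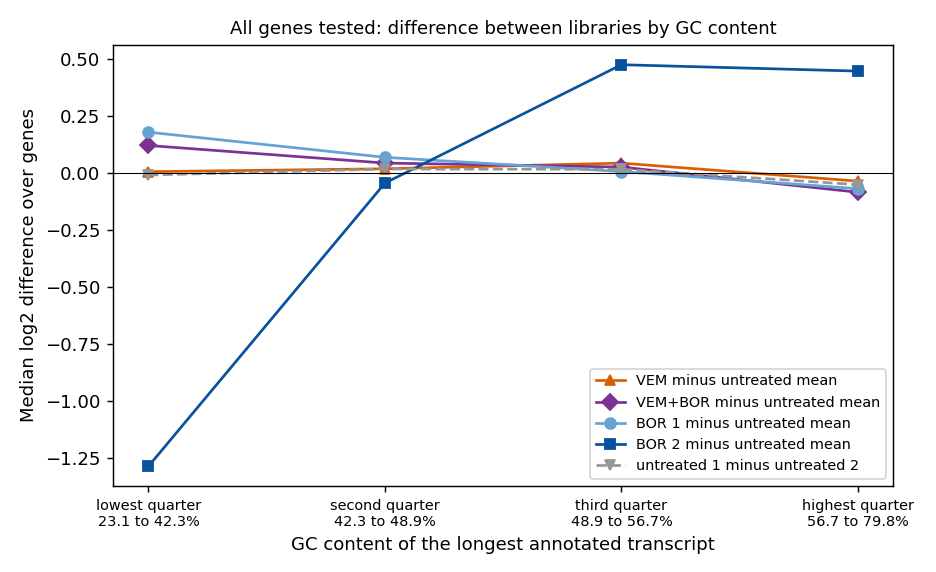
Median log2 difference over all genes tested (vertical axis) in 4 equal classes of GC content of the longest annotated transcript (horizontal axis), for each treated library minus the untreated mean and for untreated 1 minus untreated 2. BOR 2 goes to -1.29 in the lowest class and 0.45 in the highest, and the other lines stay between -0.08 and 0.18.

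The VEM+BOR library held less of most cluster histone messages than both untreated libraries, while its variant histone messages lay on either side of the untreated values. In bulk RNA read by poly-A selection, fewer cells in S phase, less message per cell and a smaller captured share of the message cannot be told apart. VEM+BOR was below both untreated libraries for 31 of 50 cluster genes and above both for 5. It was below both for 15 of 20 cluster genes with a mean of at least 10, where 26.6% of all genes of that level were, and for 14 of 26 with a mean of 1 to 10, where 33.4% were. At the higher level it was the lowest of the 6 libraries in normalised read counts for 12 of 20, where 9.9% of all genes were. In CPM it was the lowest for 11 of 20, a description only, as no share over all genes is given for that scale. It was below both by more than the distance between them for 8 of 20, against 11.8% of all genes. Of the 10 variant genes at this level 4 were below both untreated libraries and 1, H1FX, was the lowest of 6.

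HIST1H2BK, an H2B gene known to make tailed messages, had 288 normalised reads in VEM, 179 in VEM+BOR, 267 in BOR 1 and 265 in BOR 2, against 484 in untreated 1 and 283 in untreated 2. VEM+BOR was the lowest on this scale, and untreated 1 was far above the other 5 libraries. In CPM HIST1H2BK had 10.63 in VEM+BOR and 10.59 in BOR 2, so these libraries were nearly equal and below the others. The H2A gene HIST2H2AC on chromosome 1 had 54.4 in VEM, 23.9 in VEM+BOR, 38.9 in BOR 1 and 70.3 in BOR 2, against 50.6 in untreated 1 and 94.2 in untreated 2. Here VEM+BOR was again lowest, but untreated 2 was the highest. HIST1H4I, an H4 gene with a long model, had 90.4 in VEM, 56.0 in VEM+BOR, 82.4 in BOR 1 and 116 in BOR 2, against 141 in untreated 1 and 118 in untreated 2. All 4 treated libraries lay below both untreated ones, BOR 2 only by a little on this scale. In CPM HIST1H4I had 4.65 in BOR 2, clearly below 9.15 in untreated 1 and 6.66 in untreated 2. HIST1H2AJ, an H2A gene whose coding sequence is largely shared with another histone gene and whose counts are therefore uncertain, had 6.45 in VEM, 1.84 in VEM+BOR, 11.1 in BOR 1 and 16.2 in BOR 2, against 12.4 in untreated 1 and 18.6 in untreated 2.

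In the fit of VEM+BOR against untreated no member passed limma's adjusted p under 0.05, where 30 of 15606 genes (0.192%) did. All 17 cluster genes tested had a negative log2 change, where 48.8% of all genes did, with a median of -1.06, against a median of 0.01 over all genes. The filter on low values ran over the libraries of this fit only, so a low gene could enter through its untreated values. HIST1H2AJ entered in that way, and its change is a description only. HIST1H4C, which was above both untreated libraries in VEM+BOR, did not meet the filter here. HIST1H2AJ had -2.56 (SE 1.07), HIST1H3H -1.65 (SE 0.87) and HIST2H2AC -1.51 (SE 0.68), and the least changed were HIST1H2BN at -0.08 (SE 0.83), HIST1H2BD at -0.09 (SE 0.70) and HIST3H2A at -0.48 (SE 0.46). HIST1H2BK had -1.06 (SE 0.45) and HIST1H4I -1.20 (SE 0.55). An unadjusted p under 0.05 was reached by 4 of the 17, all lower, where 0.807% of all genes were lower at that level, and limma's adjusted p rounded to 1 for each. The 10 variant genes had a median of 0.02, between -0.59 for H1FX and 0.20 for H2AFV. The size of the cluster change rested on untreated 1: without that library the cluster median was -0.46.

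**Figure D3:**
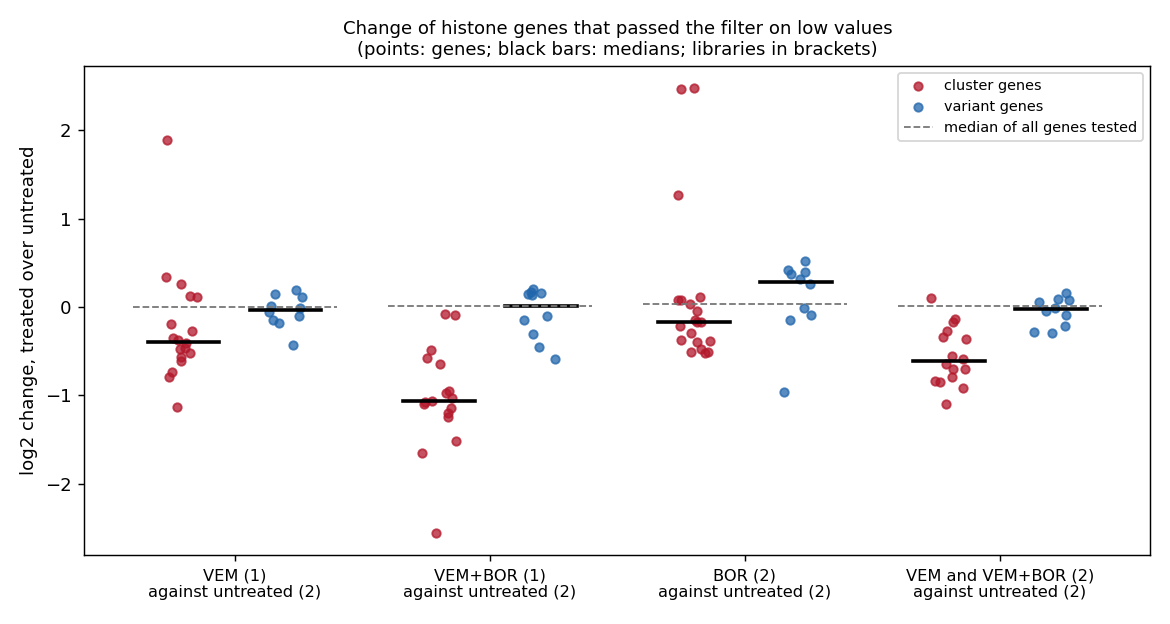
Log2 change over untreated (vertical axis) of each cluster gene and variant gene that passed the filter on low values, in 4 comparisons (horizontal axis), with black bars for the medians and dashed lines for the median of all genes tested. For VEM+BOR the cluster median is -1.06 and all 17 points are below 0, while the variant median is 0.02. The filter ran over the libraries of each comparison, so a low gene could enter through its untreated values.

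The VEM library differed less. It was below both untreated libraries for 19 of 50 cluster genes and above both for 10. It was below both for 9 of 20 cluster genes with a mean of at least 10, where 27.3% of all genes were, and for 8 of 26 with a mean of 1 to 10, where 30.2% were. Among the genes with a mean of at least 10 it was below both by more than the distance between them for 5 of 20 (HIST1H1C, HIST1H2AJ, HIST1H2BH, HIST1H4I and HIST4H4), where 11.3% of all genes were. HIST1H1C, the most abundant linker H1 gene of the clusters, had 202 normalised reads in VEM, 206 in VEM+BOR, 261 in BOR 1 and 400.2 in BOR 2, against 303 in untreated 1 and 311 in untreated 2. The VEM and VEM+BOR values were close to each other and below the untreated pair, whose values were also close. Scaled to the library total, HIST1H1C had 12.7 CPM in VEM, 12.3 in VEM+BOR, 15.9 in BOR 1 and 15.99 in BOR 2, against 19.6 in untreated 1 and 17.6 in untreated 2, so that BOR 2 was the highest on the first scale and below both untreated libraries on the second.

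In the fit of VEM against untreated no member passed, where 7 of 15689 genes (0.0446%) did. The 18 cluster genes tested had a median log2 change of -0.39, with 13 negative where 49.8% of all genes were, and the 10 variant genes had a median of -0.03. The lowest were HIST1H2AJ at -1.14 (SE 0.97), HIST1H2BH at -0.79 (SE 0.82) and HIST1H2BJ at -0.74 (SE 0.74). HIST1H2AJ again met the filter on low values through its untreated libraries. The highest were HIST2H4B at 1.89 (SE 1.23), HIST1H2AG at 0.34 (SE 0.75) and HIST3H2BB at 0.25 (SE 0.81). HIST2H4B shares nearly all its sequence with HIST2H4A, so its counts are uncertain. It had 21.2 normalised reads in VEM, 0.92 in VEM+BOR, 4.63 in BOR 1 and 1.35 in BOR 2, against 17.8 in untreated 1 and 0.98 in untreated 2, and the untreated pair spans nearly the whole range. Of the variant genes, H2AFY, which encodes macroH2A1, had the lowest log2 change at -0.43 (SE 0.40), and H2AFJ, an H2A variant, the highest at 0.20 (SE 0.36). Without untreated 1 the cluster median was -0.01.

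With VEM and VEM+BOR set together against the untreated pair, no member passed, where 34 of 15478 genes (0.22%) did. These libraries differ by BOR and are not replicates of 1 treatment. Both lay below both untreated libraries for 8 of 20 cluster genes with a mean of at least 10, where 14.5% of all genes did, and above both for 1, HIST1H4C, where 19.4% did. HIST1H4C reached that mean only through BOR 2 and rests here on few reads. It had 0.17 CPM in VEM and 0.16 in VEM+BOR, against 0.06 in untreated 1 and 0.11 in untreated 2. The cluster median was -0.61 over 16 genes, 15 of them negative where 49.1% of all genes were, and the variant median was -0.03. HIST1H3H had the lowest log2 change at -1.10 (SE 0.64), followed by HIST2H2AC at -0.92 (SE 0.52) and HIST1H4I at -0.85 (SE 0.37). The highest were HIST2H4B at 0.10 (SE 1.35), HIST1H2BD at -0.13 (SE 0.50) and HIST3H2A at -0.17 (SE 0.30). The smallest adjusted p of a member by limma was 0.779, for HIST1H1C at -0.59 (SE 0.25). Without untreated 1 the cluster median was -0.21, and without untreated 2 it was -1.03.

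The BOR libraries did not move together. In the fit of BOR against untreated 0 of 15382 genes (0%) passed, with 38 at an unadjusted p under 0.05, and DESeq2 called 33 genes, none of them a member. The 20 cluster genes tested had a median log2 change of -0.17, with 13 negative where 47.6% of all genes were, and the 10 variant genes had a median of 0.29. Scaling to library totals moved the median of all genes by -0.30, and with it the cluster median was -0.45, with 17 of 20 negative where 68.7% of all genes were, and the variant median was -0.01. The sign of the cluster median also turned with the libraries used, being 0.24 without untreated 1 and 0.14 without BOR 1. The highest changes were HIST1H4C at 2.48 (SE 1.53), HIST2H3D at 2.46 (SE 1.38) and HIST1H3C at 1.27 (SE 0.90), and the lowest were HIST3H2BB at -0.52 (SE 0.95), HIST2H2BE at -0.51 (SE 0.66) and HIST1H2BJ at -0.51 (SE 0.70). Limma's smallest adjusted p of a member was 0.968. The 3 highest each rested on BOR 2.

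HIST1H4C, an H4 gene on chromosome 6 that spans chr6:26103876-26104310 on the plus strand of GRCh38, had 2.77 normalised reads in VEM, 2.75 in VEM+BOR, 1.85 in BOR 1 and 60.8 in BOR 2, against 0.89 in untreated 1 and 1.96 in untreated 2. BOR 2 stood alone, with 45 reads before scaling, and the other 5 libraries held 1 to 3 reads each. HIST1H3B, an H3.1 gene, had 3.69 in VEM, 0.92 in VEM+BOR, 3.70 in BOR 1 and 29.7 in BOR 2, against 0.89 in untreated 1 and 1.96 in untreated 2. HIST1H3C, another H3.1 gene, had 4.61 in VEM, 4.59 in VEM+BOR, 12.04 in BOR 1 and 35.2 in BOR 2, against 5.33 in untreated 1 and 11.8 in untreated 2. HIST2H3D, an H3 gene on chromosome 1, had 3.69 in VEM, 9.18 in VEM+BOR, 9.26 in BOR 1 and 35.2 in BOR 2, against 0 in untreated 1 and 10.8 in untreated 2. In each of the 4 genes BOR 2 was the highest library, and BOR 1 lay within the range of the others for all but HIST1H3B and HIST1H3C, where it was marginally above them. When BOR 1 was left out, the log2 change was 4.69 for HIST1H4C, 3.68 for HIST1H3B and -1.69 for the variant H1F0. BOR 2 was then the only treated library. HIST1H4C and HIST1H3B met the filter on low values there only through BOR 2, so their changes are descriptions.

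BOR 2 was the highest of the 6 libraries for 21 of 50 cluster genes, 17 of the 27 with a short model and 4 of the 23 with a long one. At a mean of at least 10 this was 4 of 7 short and 2 of 13 long models, where 39.3% of all genes had BOR 2 highest, and at a mean of 1 to 10 it was 13 of 17 short and 2 of 9 long models, where 18.1% did. The short models HIST1H3C, HIST1H4C and HIST2H3D reached a mean of at least 10 only through their BOR 2 values. For them the filter itself favoured BOR 2 as the highest library, so the count at that level is a description only. In CPM BOR 2 was the highest for 12 of 27 short and 1 of 23 long models over all levels. At a mean of at least 10 it was the highest for 3 of 7 short models, those just named, and 0 of 13 long ones. Of all genes at that level 19.1% had it highest in CPM. At a mean of 1 to 10 the share of all genes was 9.08%, for which no separate member count is given. Over all genes that were both in the 25% highest in GC content and in the 25% shortest, BOR 2 was the highest library for 54.0% at a mean of at least 10 and for 26.5% at a mean of 1 to 10. The 24 genes with a short model and a mean under 50 held together 4.12 CPM in VEM (95% exact binomial interval 3.21 to 5.19), 3.33 in VEM+BOR (2.54 to 4.27), 5.26 in BOR 1 (4.24 to 6.44) and 12.9 in BOR 2 (11.3 to 14.6), against 4.26 in untreated 1 (3.34 to 5.35) and 6.54 in untreated 2 (5.42 to 7.84). The 20 genes with a long model and a mean under 50 had a different order, 20.7 CPM in VEM, 11.997 in VEM+BOR, 20.4 in BOR 1 and 11.995 in BOR 2, against 34.7 in untreated 1 and 14.6 in untreated 2.

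**Figure D4:**
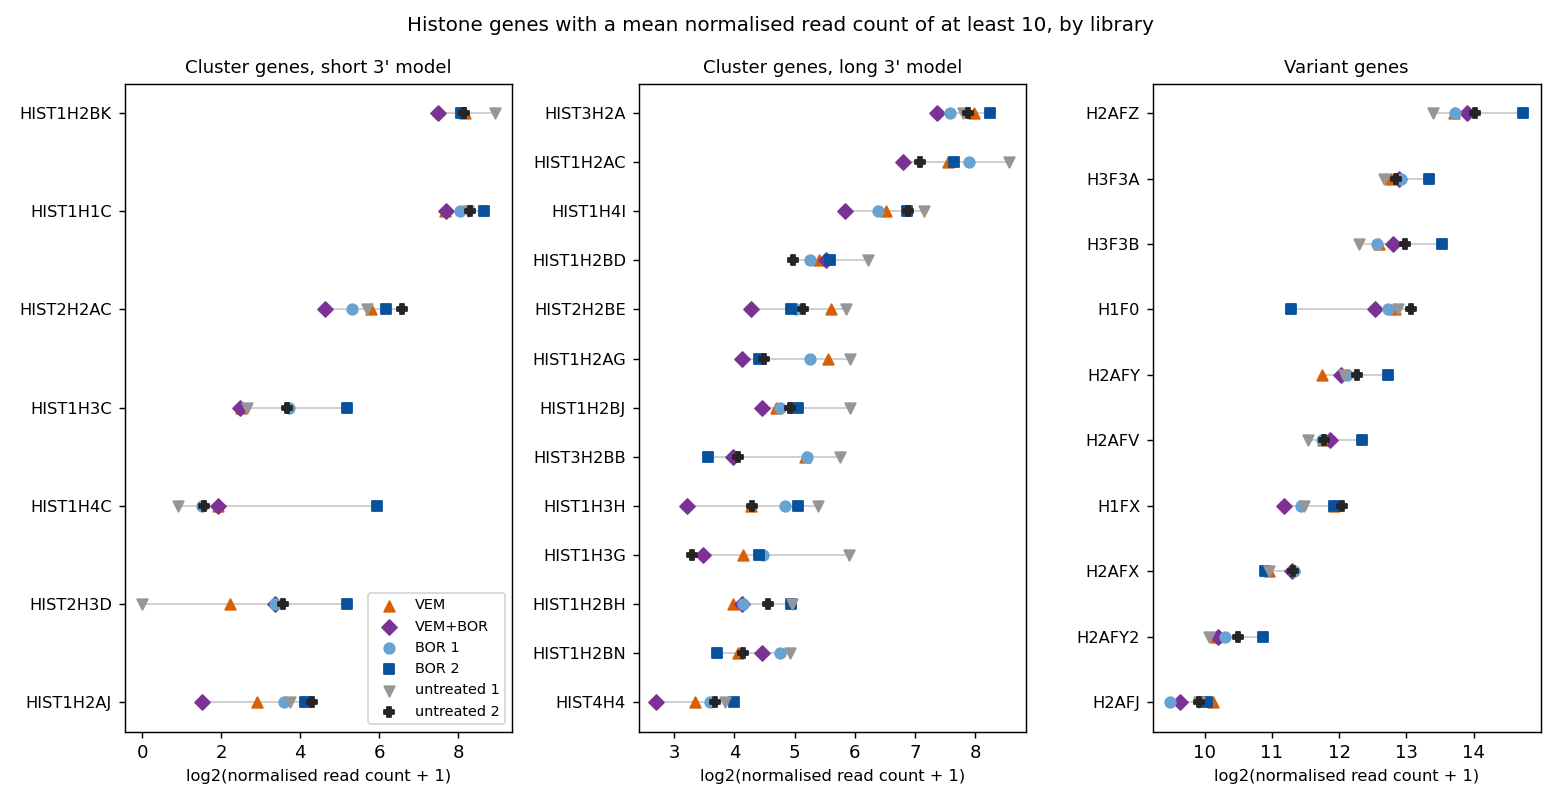
Normalised read count of each gene with a mean of at least 10, as log2(count + 1) on the horizontal axis, with 1 symbol per library, for cluster genes with a short 3′ model, cluster genes with a long one, and variant genes. BOR 2 lies far to the right for HIST1H4C at 60.8 normalised reads, and untreated 1 is the rightmost symbol for 11 of 13 long models.

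The untreated pair differed in opposite directions for most long and most short models. Untreated 1 was above untreated 2 for 18 of 23 long and 6 of 27 short models, and for 2 of 11 variant genes, where 49.6% of all genes with a mean of at least 10 and 58.2% of those with a mean of 1 to 10 were. At a mean of at least 10, untreated 2 had at most 50% of the untreated 1 value for 7 of 13 long models and none of the 7 short ones, where 9.44% of all genes did. The reverse, untreated 1 at no more than 50% of untreated 2, held for 3 of the 7 short models (HIST1H3C, HIST1H4C and HIST2H3D) and none of the 13 long ones, where 2.68% of all genes did. These 3 short models reached a mean of at least 10 only through BOR 2, and their untreated values rest on few reads. In CPM HIST1H3C had 0.345 in untreated 1 and 0.666 in untreated 2. HIST1H4C had 0.058 and 0.111, and HIST2H3D had 0 and 0.610. At a mean of 1 to 10, where a value rests on few reads, untreated 2 had at most 50% of untreated 1 for 4 of 17 short and 2 of 9 long models (38.9% of all genes), and the reverse held for 10 of 17 short and 4 of 9 long models (22.6% of all genes). Untreated 1 was the highest of the 6 libraries for 11 of these 13 long models, where 14.7% of all genes had it highest. HIST1H3G, an H3 gene, had 16.6 normalised reads in VEM, 10.1 in VEM+BOR, 21.3 in BOR 1 and 20.3 in BOR 2, against 58.6 in untreated 1 and 8.83 in untreated 2. HIST1H2AC had 187 in VEM, 111 in VEM+BOR, 238 in BOR 1 and 200.1 in BOR 2, against 376 in untreated 1 and 135 in untreated 2. In both genes VEM, BOR 1 and BOR 2 lay between the untreated libraries. HIST3H2A, also with a long model, was an exception, with 251 in VEM, 164 in VEM+BOR, 189.8 in BOR 1 and 303 in BOR 2, against 221 in untreated 1 and 235 in untreated 2. In CPM HIST3H2A was highest in VEM, at 15.8. BOR 2, at 12.1 CPM, was then below both untreated 1, at 14.3, and untreated 2, at 13.3. Over all genes untreated 1 minus untreated 2 had a median log2 difference of -0.20 in the 25% with the shortest transcripts and 0.25 in the 25% with the longest. A long 3′ model is not a long transcript on this scale. The median length was 1694 bases for long and 411 for short cluster models, both within the shortest 25%, which reached 2031 bases.

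Several H2B genes with a long model were also highest in untreated 1. HIST1H2BD had 41.5 normalised reads in VEM, 45.0 in VEM+BOR, 37.0 in BOR 1 and 47.3 in BOR 2, against 73.7 in untreated 1 and 30.4 in untreated 2. HIST1H2BJ had 24.9 in VEM, 21.1 in VEM+BOR, 25.9 in BOR 1 and 32.5 in BOR 2, against 59.5 in untreated 1 and 29.4 in untreated 2. HIST2H2BE had 47.9 in VEM, 18.4 in VEM+BOR, 31.5 in BOR 1 and 29.7 in BOR 2, against 56.8 in untreated 1 and 34.3 in untreated 2. All 3 were highest in untreated 1, and 2 of the 3 were lowest in VEM+BOR.

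Among the variant genes, H2AFZ had 13366 normalised reads in VEM, 15232 in VEM+BOR, 13487 in BOR 1 and 27217 in BOR 2, against 10778 in untreated 1 and 16584 in untreated 2. In CPM this was 840.3 in VEM, 905 in VEM+BOR, 823 in BOR 1 and 1088 in BOR 2, against 699 in untreated 1 and 938 in untreated 2, so BOR 2 was highest on both scales. H3F3B gave the same order of the extremes, with 387 CPM in VEM, 426 in VEM+BOR, 370.3 in BOR 1 and 473 in BOR 2, against 325 in untreated 1 and 457 in untreated 2. H3F3A changed place with the scale: BOR 2 had the highest normalised read count, 10316 against 6483 in untreated 1 and 7348 in untreated 2, and the lowest CPM, 412 against 420.4 in untreated 1 and 415 in untreated 2. The remaining H2A variants with their highest normalised read count in BOR 2 were H2AFV, H2AFY and H2AFY2, none of which was highest there in CPM.

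H1F0 went the other way. It had 7279 normalised reads in VEM, 5948 in VEM+BOR, 6788 in BOR 1 and 2493 in BOR 2, against 7539.9 in untreated 1 and 8598 in untreated 2. In CPM it had 458 in VEM, 353 in VEM+BOR, 414 in BOR 1 and 99.6 in BOR 2, against 489 in untreated 1 and 486 in untreated 2. All 4 treated libraries were below both untreated libraries on both scales, with BOR 2 far below the other 3. Its log2 change was -0.97 (SE 0.60) for BOR, -0.45 (SE 0.43) for VEM+BOR and -0.15 (SE 0.44) for VEM, and limma's adjusted p was 0.968 for BOR and rounded to 1 for the other 2. H1FX, the linker histone H1.10, had 3866 in VEM, 2327 in VEM+BOR, 2753 in BOR 1 and 3879 in BOR 2, against 2864 in untreated 1 and 4219.7 in untreated 2, with an antisense gene over it that the counting may not tell apart. H2AFX, which encodes the DNA damage mark H2A.X and carries the stem-loop shown above, had 1991 in VEM, 2509.8 in VEM+BOR, 2582 in BOR 1 and 1909 in BOR 2, against 1989 in untreated 1 and 2541 in untreated 2. The untreated pair spanned most of its range on that scale. In CPM H2AFX had 125 in VEM, 149 in VEM+BOR and 158 in BOR 1, against 129 in untreated 1 and 144 in untreated 2. BOR 2, at 76.3 CPM, was far below all of these.

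Genes that act on histone messages and histones were measured for comparison. Of 24 genes of histone message 3′ end processing none passed in any of the 4 comparisons. SLBP, the stem-loop binding protein, had 2758 normalised reads in VEM, 3022 in VEM+BOR, 3110.4 in BOR 1 and 6185 in BOR 2, against 2638 in untreated 1 and 3636 in untreated 2. NPAT, the activator of histone gene transcription in S phase, had 183 in VEM, 217 in VEM+BOR, 305 in BOR 1 and 46.0 in BOR 2, against 271 in untreated 1 and 290.3 in untreated 2. CASP8AP2, which works with NPAT, had log2 changes of -0.83 (SE 0.43) for VEM and -0.13 (SE 0.42) for VEM+BOR, and LSM11, a subunit of the U7 particle that cuts histone messages, had 0.40 (SE 0.38) and 0.28 (SE 0.38). Of 28 histone chaperone and assembly genes and of 39 S-phase and replication genes none passed either. The S-phase median was -0.11 for VEM, -0.05 for VEM+BOR, 0.31 for BOR and -0.07 for both VEM-containing libraries, where the cluster median for VEM+BOR was -1.06.

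Individual S-phase genes did not share 1 direction. MKI67, the proliferation antigen Ki-67, had 1979 normalised reads in VEM, 3588 in VEM+BOR, 4151 in BOR 1 and 729 in BOR 2, against 7069 in untreated 1 and 5411 in untreated 2. CCNE2, a cyclin of S-phase entry, had 318 in VEM, 369 in VEM+BOR, 282 in BOR 1 and 166 in BOR 2, against 239 in untreated 1 and 139 in untreated 2. PCNA, the replication clamp, had 2973 in VEM, 3095 in VEM+BOR, 2808 in BOR 1 and 5272 in BOR 2, against 2749 in untreated 1 and 3655 in untreated 2, and MCM2, a subunit of the replicative helicase, had log2 changes of -0.11 (SE 0.42) for VEM and -0.06 (SE 0.42) for VEM+BOR. In normalised read counts 28 of the 39 genes were highest in BOR 2, where 39.3% of all genes with a mean of at least 10 were, and in CPM 20 of the 39 were, where 19.1% were.

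Other RNAs made without a poly-A tail were looked for beside the cluster genes, and 7 of 23 were measured. Their summed normalised read counts were 872 in VEM, 481 in VEM+BOR, 321 in BOR 1 and 732 in BOR 2, against 313 in untreated 1 and 539 in untreated 2. RN7SL2, an RNA of the signal recognition particle, made up most of this, with 724 in VEM, 284 in VEM+BOR, 139 in BOR 1 and 487 in BOR 2, against 155 in untreated 1 and 324 in untreated 2. SNORD3A, the U3 small nucleolar RNA, had 9.22 in VEM, 6.42 in VEM+BOR, 4.63 in BOR 1 and 114 in BOR 2, against 4.44 in untreated 1 and 0.98 in untreated 2, so that it shared with HIST1H4C a high value in BOR 2 alone. SNORD3A was the only 1 of the 7 with its highest value in BOR 2, and SNORD17 had its lowest value there, at 85.2. The test took in 3 or 4 of the 7 in each comparison, and none passed. The part of untailed RNA in the histone values was not tested. RN7SK, RMRP and RPPH1 were not analysed here.

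Promoters were examined because the cluster genes share a direction in VEM+BOR. RefSeq promoter sequences (GRCh38.p14) were matched for 50 of 59 cluster genes and 11 of 13 variant genes, and the 250 bases before the start were searched on both strands for CCAAT, for TATAAA and for the octamer ATTTGCAT. CCAAT was found in 82.0% of cluster, 72.7% of variant and 33.0% of all promoters, TATAAA in 68.0%, 36.4% and 11.1%, and the octamer in 42.0%, 9.09% and 1.66%. The octamer was in 12 of 16 H2B promoters of the clusters. A match is a description and not a binding site. The pair of sequences below belongs to the most abundant H2B gene, at chr6:27146859-27147108 on the minus strand, and to an H2A gene of the same chromosome, at chr6:26123922-26124171 on the plus strand, with the motifs in capitals.
HIST1H2BK: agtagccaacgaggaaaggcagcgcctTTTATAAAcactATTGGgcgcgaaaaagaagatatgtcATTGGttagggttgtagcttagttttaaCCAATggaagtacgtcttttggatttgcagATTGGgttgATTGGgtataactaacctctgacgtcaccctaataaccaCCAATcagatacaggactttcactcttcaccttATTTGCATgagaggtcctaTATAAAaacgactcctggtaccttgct
HIST1H2AC: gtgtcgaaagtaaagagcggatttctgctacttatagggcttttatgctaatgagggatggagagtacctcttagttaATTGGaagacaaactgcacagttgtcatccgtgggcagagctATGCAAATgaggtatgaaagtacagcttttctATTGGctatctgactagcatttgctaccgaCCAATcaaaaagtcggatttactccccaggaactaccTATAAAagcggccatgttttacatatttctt
HIST1H2BK holds 6 CCAAT, 3 TATAAA (of which a pair overlap on opposite strands) and 1 octamer, and HIST1H2AC holds 3 CCAAT, 1 TATAAA and 1 octamer. Motif content did not divide the short from the long models for CCAAT, at 84.0% and 80.0%, or the octamer, at 44.0% and 40.0%, while TATAAA was in 84.0% and 52.0%.

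Several members could be described only by their listing. HIST2H2AB, an H2A gene, was listed in the BOR table alone, with 0 in BOR 1 and 13.5 in BOR 2, against 0 in untreated 1 and 0.98 in untreated 2, and HIST1H4B likewise had 0 in BOR 1 and 9.47 in BOR 2, against 0 in both untreated libraries. H1FNT, a linker histone of the testis, was listed with 1.84 in VEM and 2.75 in VEM+BOR. H3F3C, a primate-specific H3 variant gene, stayed between 0.92 and 2.70 in all 6 libraries. In the authors' deposited tables no member had an adjusted p under 0.05, and the smallest was 0.561, in the BOR table. In all, 11 cluster genes shared more than 50% of their 150-base windows with another histone gene, and 12 cluster and 6 variant genes overlapped another gene, so reads of these cannot be assigned to 1 gene with certainty.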

How the data were processed

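Messenger RNA of SKM-1 cells was sequenced in 6 libraries. Per the labels' protocols it was bound to poly-T beads and copied from random hexamers, and read in pairs of 150 bp. The protocol names no strand-marking step. Tools named in the submitters' processing notes, which give them no task, were featureCounts 1.5.0-p3, HISAT2 2.0.5, CASAVA, edgeR 3.22.5 and DESeq2 1.20.0. No build is named in the sources used here. Coordinates and symbols of all 26704 genes equal those of GENCODE 29 (GRCh38).

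There are 3 tables, in which VEM, VEM+BOR and BOR stand beside the same untreated libraries, so the comparisons share controls. The signal values are, as deposited by the authors, read counts of each gene divided by a size factor of the library, and are called normalised read counts. The log2 fold changes, p-values and adjusted p-values that the authors deposited serve only where their table is named. The deposited gene length, an "other" value in bases, gave levels per kilobase. Dividing each signal value by the smallest step of its column gave whole reads within 0.001 for 100% of values. The totals were 17252404 reads for VEM, 18337577 for VEM+BOR, 17694212 and 18507606 for BOR 1 and BOR 2, and 17371022 and 18031385 for untreated 1 and untreated 2. For VEM that step is close to 1, which leaves its recovery unchecked, and VEM entered no count test. Low counts limit the precision of a gene.

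For values set across tables, median-of-ratios factors over the 23519 genes listed in all 3 gave a common scale. Members and lists were chosen with earlier results of these data known. The test was limma (3.58.1, R 4.3.3, trend option) on log2(value + 1), which understates changes of low genes, for genes with a mean of at least 10 within 1 table, two-sided, with Benjamini-Hochberg adjusted p under 0.05 over all genes tested. It was tested on simulated data. Lone libraries were assumed to vary like the untreated ones, or like the BOR pair where an untreated library was left out. Groups came from the treatment labels, and replicate numbers follow accession order and pair nothing. Named genes were the 12 cluster genes highest per kilobase, variant genes with a mean of at least 10, members past the threshold, the 3 highest and 3 lowest cluster changes of each comparison, and up to 4 genes of each list. HIST1H3B, HIST2H2BE, HIST1H2AC's promoter, the genes with values by listing only and the genes named by a count were chosen after their values were seen. Alternatives were other filters, pseudocounts and scalings, all libraries in 1 fit, count tests of the recovered reads (DESeq2 1.42.0, edgeR 4.0.16), and each library left out. CPM values divide a gene's reads by all reads of the library. GC content and length are of the longest GENCODE 29 transcript. The result of 1 cell type marker is not reported here.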

Additional observations from a re-analysis of the deposited data

How the results depend on the processing

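Under the other settings no histone gene passed the threshold except when BOR 1 was left out, and 84 of 86 counts of called members, 78 of 86 medians and 15 of 16 ratios stayed close to the reported values. The counts that stayed close were 0 on both sides, which says little about stability. A median or ratio was called close where it moved by less than the standard deviation of the untreated pair. That pair lay far apart for cluster genes, so this margin is wide. Counts over all genes moved more. For VEM against untreated they were 0 with a mean of at least 1, 40 with library totals and 0 with all 6 libraries in 1 fit. For VEM+BOR they were 0 with a mean of at least 1, 89 with library totals, 51 with TMM factors, 0 with all libraries in 1 fit, 85 with edgeR and 63 with DESeq2. For BOR DESeq2 called 33, and for the VEM-containing libraries 5 genes passed at a mean of at least 50, 6 with library totals, 12 with TMM factors and 0 with all libraries in 1 fit. With each library left out in turn the counts ran from 0 to 4008 for BOR and from 137 to 777 for the VEM-containing libraries, and the called members of BOR from 0 to 2 cluster and 0 to 1 variant genes. For VEM and VEM+BOR the count was 0 to 0, but with an untreated library left out the spread of that fit came from the BOR pair alone, so this says nothing about stability. The same omissions moved the cluster median from -1.10 to -0.46 for VEM+BOR and from -0.26 to 0.24 for BOR, and the variant median from -0.28 to 0.15 for VEM, -0.20 to 0.18 for VEM+BOR, -0.015 to 0.57 for BOR and -0.25 to 0.15 for the VEM-containing libraries. The variant median of BOR was -0.012 with library totals. The ratio of cluster to variant genes in BOR 2, minus the untreated mean, was 0.54 with overlapping genes and near-identical copies left out. This ratio moved through the variant sum, as given above. The cause of the other shifts was not tested, beyond the fewer libraries of a fit. The direction of HIST1H1C, HIST1H3H, HIST3H2A, HIST4H4 and H2AFY for BOR, of H2AFZ and H3F3B for VEM and of H2AFX for the VEM-containing libraries turned with the scaling. For BOR these changes were 0.04 to 0.26 as reported and -0.24 to -0.04 with library totals, and the others were between -0.06 and 0.05 on each scaling. No paired analysis was possible because the labels number no replicates. Cluster genes with under 10 reads a library are limited by depth.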

Other observations

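Pseudogenes of the histone families, which the gene rule leaves out, were also read. HIST2H2BC had 347 normalised reads in VEM, 251 in VEM+BOR, 278 in BOR 1 and 82.5 in BOR 2, against 377 in untreated 1 and 158 in untreated 2, a mean above that of every cluster gene except HIST1H2BK and HIST1H1C. Its neighbour HIST2H2BD had 116 in VEM, 80.8 in VEM+BOR, 70.4 in BOR 1 and 46.0 in BOR 2, against 117 in untreated 1 and 45.1 in untreated 2. These genes overlap on chromosome 1 on opposite strands, so their reads cannot be told apart without strand. In both, untreated 1 was the highest library, as it was for most long cluster genes. H3F3AP4, a processed copy of H3F3A, had 477 in VEM, 552 in VEM+BOR, 593 in BOR 1 and 780.2 in BOR 2, against 383 in untreated 1 and 569.9 in untreated 2. Its highest and lowest libraries were those of H3F3A, whose sequence it largely repeats, so its counts are uncertain.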
